A study of Mus musculus with 2 samples.

Results

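The 9 genes described here are markers used to recognise the cerebellum in mouse brain RNA: Pcp2, Car8, Cbln1, Cbln3, Zic1, Zic2, Neurod1, Itpr1 and Pcp4. They were picked by symbol, by a rule that uses no measured value but was written with earlier results of these data known, and all 9 were found among the 43346 genes of the tables, with 20 transcripts between them. By general knowledge of where they are made, 2 are specific to a cell type of the cerebellum (Pcp2 and Cbln3), 2 are strongest in the cerebellum with some expression elsewhere (Car8 and Cbln1), and 5 are shared with the forebrain (Zic1, Zic2, Neurod1, Itpr1 and Pcp4). The RNA came from brain tissue of 1 adult male mouse of the inbred strain C57BL/6J, aged 10 weeks, and was sequenced as poly(A) mRNA in 2 libraries that the labels call technical replicates 1 and 2 of biological replicate 1. There was no treatment and no second animal, so the spread between the libraries holds no difference between mice. The labels name the tissue as brain and no region within it. Replicate 2 was made at a later date than replicate 1, so date and library cannot be told apart.

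The libraries held 18302506 and 17828479 counts, and the levels of many genes differed between them with GC content, the share of G and C bases in their transcripts. A TPM of 1 was reached by 11608 genes in replicate 1 and by 14780 in replicate 2. TPM is a transcript level per unit of length, rescaled so that each library has an equal sum, and an expected count is an estimated number of sequenced fragments. In bulk tissue, fewer cells of a type and less RNA per cell cannot be told apart.

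The cerebellar cortex is built from a few kinds of neuron. Purkinje cells are its output neurons and carry very large dendrites rich in the calcium release channel that Itpr1 encodes. Granule cells are small, densely packed and send parallel fibres to the Purkinje cells. They secrete cerebellins, proteins that help hold the synapses between parallel fibres and Purkinje cells together. Zic and Neurod proteins are transcription factors that granule cells and some forebrain neurons both use.

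The stretches below show the coding sequence of 5 of these genes, from the start codon, 5′ to 3′, with G and C in capitals because the libraries differed along GC content. Pcp2 and Cbln3 are shown as the cell-specific markers, Zic1 and Neurod1 for the contrast between a GC-rich coding part and an AT-rich tail, and Pcp4 as the most abundant gene of the set. The sequences are those of GENCODE M21 transcripts on GRCm38 (mm10). The whole coding sequence is printed for Pcp2 (300 bases) and Pcp4 (189 bases) and the first 120 bases for the others.
Pcp2-201: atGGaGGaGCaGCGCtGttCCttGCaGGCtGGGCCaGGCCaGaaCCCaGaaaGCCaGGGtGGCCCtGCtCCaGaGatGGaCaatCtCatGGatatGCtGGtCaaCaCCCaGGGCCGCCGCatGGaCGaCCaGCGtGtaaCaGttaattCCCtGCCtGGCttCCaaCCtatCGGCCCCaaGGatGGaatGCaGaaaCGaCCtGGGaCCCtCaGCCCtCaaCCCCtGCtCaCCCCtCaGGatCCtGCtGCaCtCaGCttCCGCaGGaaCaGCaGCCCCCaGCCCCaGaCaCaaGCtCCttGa
Cbln3-201: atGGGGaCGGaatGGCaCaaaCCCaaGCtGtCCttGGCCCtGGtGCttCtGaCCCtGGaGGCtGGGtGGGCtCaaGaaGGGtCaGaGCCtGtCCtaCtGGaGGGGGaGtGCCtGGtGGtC
Zic1-201: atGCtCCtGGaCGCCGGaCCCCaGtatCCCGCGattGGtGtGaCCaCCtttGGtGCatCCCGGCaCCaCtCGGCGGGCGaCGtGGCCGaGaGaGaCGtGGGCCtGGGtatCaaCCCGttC
Neurod1-201: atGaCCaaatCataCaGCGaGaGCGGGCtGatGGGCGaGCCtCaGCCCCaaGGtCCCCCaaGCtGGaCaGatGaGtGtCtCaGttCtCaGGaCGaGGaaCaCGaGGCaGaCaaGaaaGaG
Pcp4-201: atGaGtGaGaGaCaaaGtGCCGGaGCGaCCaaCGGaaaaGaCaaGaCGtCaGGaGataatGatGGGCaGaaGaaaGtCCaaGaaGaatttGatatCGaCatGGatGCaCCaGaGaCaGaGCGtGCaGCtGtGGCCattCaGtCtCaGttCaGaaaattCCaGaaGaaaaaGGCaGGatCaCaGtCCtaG
The printed stretch had 60.7% GC in Pcp2, 62.5% in Cbln3, 65.8% in Zic1, 56.7% in Neurod1 and 47.1% in Pcp4. Outside the coding part the picture changed: the 3′ UTR of Zic1-201 (3511 bases) had 36.5% GC and that of Neurod1-201 (1443 bases) 31.3%.

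The cell-specific markers were below a TPM of 1 in both libraries, with Pcp2 at the floor and Cbln3 low but above it. Pcp2 encodes a small regulator of G protein signalling in Purkinje cells (ENSMUSG00000004630.14, chromosome 8, 3623371 to 3625545, minus strand). It had 0 counts in replicate 1 and 1 count in replicate 2, a TPM of 0 and 0.33. A count of 0 allows up to 3 counts, which at the effective length of the transcript seen in replicate 2 is 0.736 TPM in replicate 1. Pcp2 was therefore not detectable at this depth in replicate 1 and rested on a single fragment in replicate 2. The posterior mean TPM that the authors deposited beside these values was 1.12 and 1.74, and with 0 and 1 counts behind it, it was not read as a level. Of the 7 transcripts, only Pcp2-203 held the count.

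Cbln3 is a cerebellin made in granule cells (ENSMUSG00000040380.9, chromosome 14, 55878913 to 55884392, minus strand). Its expected counts were 18 and 16, and its TPM was 0.28 and 0.33 (0.305 ± 0.0354, SD, n = 2). The libraries lay close together and both below a TPM of 1. All expected counts were assigned to the long Cbln3-201 and 0 to Cbln3-202. By the authors' posterior mean TPM, Cbln3-202 held 15.99% and 29.11%, so at 18 and 16 counts the mix of transcripts is not resolved. The log2 count ratio of replicate 2 over replicate 1 was -0.74, with a 95% counting interval from -1.81 to 0.31 and an adjusted p of 0.208 in the exact binomial test. At this depth no difference of Cbln3 between the libraries was detectable.

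The markers that are strongest in the cerebellum were measured well above these. Car8 encodes a carbonic anhydrase-related protein that binds the IP3 receptor in Purkinje cells (ENSMUSG00000041261.9, chromosome 4, 8143362 to 8239041, minus strand). It had 502 and 304 counts and a TPM of 9.52 and 7.65 (8.59 ± 1.32, SD, n = 2), all on 1 transcript. Cbln1 encodes the cerebellin that links parallel fibres to Purkinje cells and is also made in some thalamic nuclei (ENSMUSG00000031654.11, chromosome 8, 87468405 to 87472609, minus strand). It had 101 and 242 counts and a TPM of 4.5 and 12.5 (8.51 ± 5.67, SD, n = 2). Car8 was thus the higher of the pair in replicate 1 and Cbln1 in replicate 2. The coding sequences of Cbln1 and Cbln3 are 67.5% identical over 570 aligned bases, yet Cbln1 stood above Cbln3 in TPM in each library.

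The 5 genes shared with the forebrain were all present, from 4.04 TPM for Zic2 to 1273 TPM for Pcp4. Zic1 and Zic2 encode zinc finger transcription factors of granule cells, and of septum, olfactory bulb and meninges among other places. Zic1 (ENSMUSG00000032368.10, chromosome 9, 91358058 to 91365810, minus strand) had 1007 and 664 counts and a TPM of 12.9 and 15.7 (14.3 ± 1.97, SD, n = 2). Zic2 (ENSMUSG00000061524.8, chromosome 14, 122475435 to 122479852, plus strand) had 131 counts in each library and a TPM of 4.04 and 5.36 (4.7 ± 0.933, SD, n = 2). Zic1 was above Zic2 in both libraries, and their coding sequences are 78.6% identical over 1332 aligned bases.

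Neurod1 encodes a basic helix-loop-helix factor of granule cells of the cerebellum and of the dentate gyrus (ENSMUSG00000034701.9, chromosome 2, 79452521 to 79456751, minus strand). Its counts were 283 and 183.91 and its TPM 7.74 and 6.67 (7.21 ± 0.757, SD, n = 2). Itpr1 encodes the IP3 receptor of type 1, abundant in Purkinje cells and also found in hippocampus, cortex and striatum (ENSMUSG00000030102.8, chromosome 6, 108213096 to 108551109, plus strand). It had 6440 and 10719 counts and a TPM of 46.4 and 102 (74.4 ± 39.6, SD, n = 2). The TPM of Itpr1 was thus the higher in replicate 2, but its scaled counts differed by less than 2-fold. Pcp4 encodes a small calmodulin-binding protein of Purkinje cells, striatum and deep cortex (ENSMUSG00000090223.1, chromosome 16, 96467606 to 96525793, plus strand). It had 7500 and 6263.83 counts and a TPM of 1139 and 1273 (1206 ± 94.6, SD, n = 2). Pcp4 ranked 37 and 49 among all genes by TPM, while Cbln3 ranked 14372 and 16854.

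**Figure D1:**
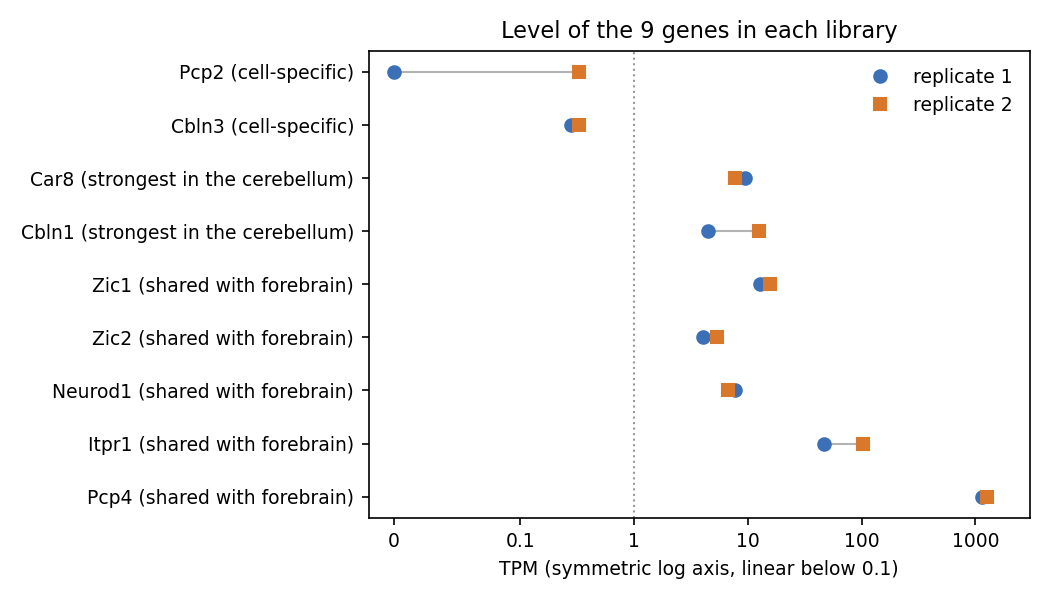
TPM of each of the 9 genes in replicate 1 (blue circles) and replicate 2 (orange squares), on a symmetric log axis with a dotted line at a TPM of 1. Pcp2 and Cbln3 lie below 1 in both libraries and the other 7 genes above it, up to 1273 for Pcp4.

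Ordered by mean TPM, the genes ran Pcp4, Itpr1, Zic1, Car8, Cbln1, Neurod1, Zic2, Cbln3, Pcp2. In TPM the libraries of Pcp4, Itpr1 and Zic1 did not overlap with those of the next gene in the order. Car8 and Cbln1, and Cbln1 and Neurod1, changed places between the libraries, so their order is not resolved. Neurod1 lay above Zic2 and Zic2 above Cbln3 in both libraries. Cbln3 and Pcp2 overlapped. In replicate 1 the level of Pcp4 was 1546-fold that of Pcp2 when Pcp2 was set at 3 counts, or 0.736 TPM. The authors' interval for Pcp2 in that library ran from 0.317 to 2.02 TPM, so this fold is not a strict lower limit. Both genes were named for Purkinje cells, and only Pcp4 is also known for strong forebrain expression.

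Some of these levels share bases with neighbours in the GENCODE M21 annotation. Exons of Pcp2 overlap Pet100, and those of Zic1 overlap Zic4, on the opposite strand. Exons of Neurod1 overlap Cerkl on the same strand and Gm26755 on the opposite one, those of Pcp4 overlap Igsf5 on the same strand, and those of Itpr1 overlap Gm44101 and Gm44040 on the opposite strand. The sources used here do not give whether the counting used strand, so reads from these overlaps cannot be told apart.

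Between the libraries, 3 of the 8 tested genes were called lower in replicate 2 (Car8, Zic1 and Neurod1) and 0 were called higher. Pcp2 was not tested, since it had fewer than 10 counts in the sum. A gene was called at a Benjamini-Hochberg adjusted p under 0.05 in a two-sided exact binomial test and at least 2-fold, with library sizes scaled by TMM, and the test compares these libraries and not conditions. Over all 16320 tested genes 23.8% were called lower and 34.5% higher, or 58.2% in either direction. The median log2 count ratio over the 9 genes, Pcp2 included, was -0.74, beside 0.09 over all tested genes, and the median log2 ratio of TPM + 1 was 0.26, beside 0.71. The medians describe these 9 genes only.

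The calls followed the scaling. With library totals in place of TMM all log2 count ratios rise by 0.61, 0 of the 9 genes were called lower and only Cbln1 was called higher, and over all genes 7.83% were called lower and 43.4% higher. With totals taken without mitochondrial genes and their nuclear copy only Car8 was called lower and 0 were called higher. Of all tested genes 16.6% were then lower and 38.1% higher. With any fold counted, 5 were lower (Car8, Zic1, Zic2, Neurod1 and Pcp4) and 2 higher (Cbln1 and Itpr1), beside 38.8% and 43.4% of all tested genes. No direction is therefore given for the set.

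Car8 had a log2 count ratio of -1.30, with a counting interval from -1.51 to -1.09 and an adjusted p of 7.06e-36 in the exact test. Its log2 ratio of TPM + 1 was -0.28, the lowest of the 9 genes. Neurod1 was near it, with a log2 count ratio of -1.19 (-1.47 to -0.92, adjusted p of 2.31e-18, exact test) and a log2 ratio of TPM + 1 of -0.19. Zic1 was called lower in counts at -1.17 (-1.32 to -1.03, adjusted p of 1.85e-60, exact test) while its log2 ratio of TPM + 1 was 0.26. Cbln1 had the highest log2 count ratio of the tested genes, 0.68, with an interval from 0.35 to 1.04 and an adjusted p of 6.58e-05 in the exact test. Its log2 ratio of TPM + 1 was 1.30. Pcp4, at -0.83, and Itpr1, at 0.16, have intervals that do not reach 0 (-0.88 to -0.78 and 0.12 to 0.21) and were not called because they differ by less than 2-fold. These intervals cover counting error only.

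The direction of the TPM ratios was not kept for several genes when the unit changed. With TPM rescaled without mitochondrial genes and their nuclear copy, the log2 ratio of Zic1 went from 0.26 to -0.64, that of Zic2 from 0.34 to -0.48, that of Pcp4 from 0.16 to -0.78 and that of Cbln3 from 0.06 to -0.26. With FPKM, Zic1 was at -0.08, Pcp4 at -0.21 and Cbln3 at -0.02, while Zic2 stayed above 0 at 0.03. Itpr1 went from 1.13 to 0.20 with the rescaled TPM, and Cbln1 from 1.30 to 0.50. Over the 14229 genes whose mean TPM reached 1, the median log2 ratio of TPM + 1 as deposited was 0.88.

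**Figure D2:**
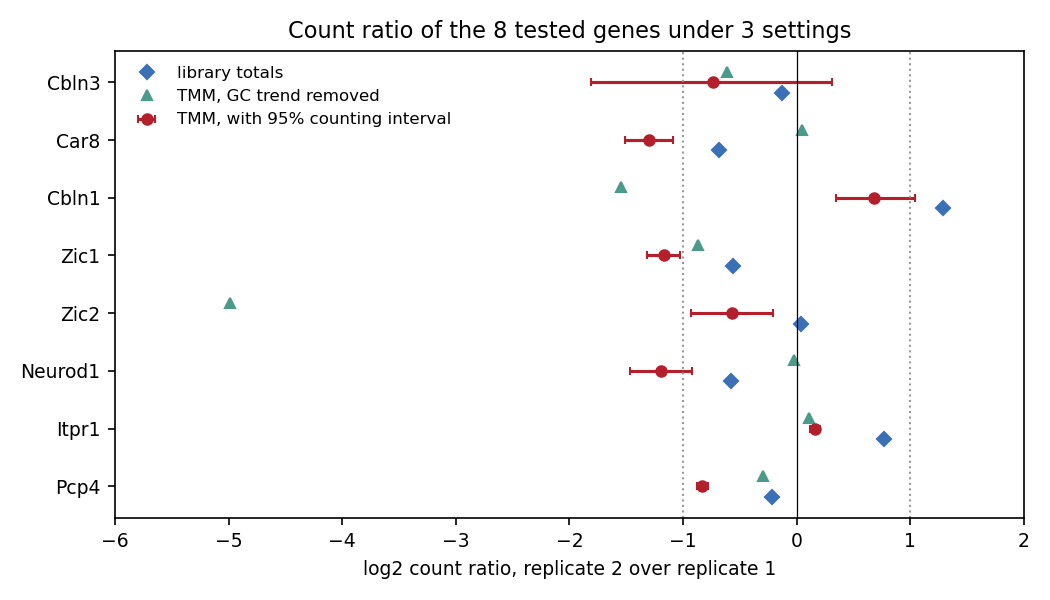
Log2 count ratio of replicate 2 over replicate 1 for the 8 tested genes, with TMM scaling and its 95% counting interval (red circles and bars), with library totals (blue diamonds) and with the trend on GC content removed (green triangles). Dotted lines mark a 2-fold difference; Car8, Zic1 and Neurod1 lie past it on the low side with TMM only, and Zic2 reaches -4.99 with the trend removed.

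GC content moved with the count ratio over all genes, and its part in the values of these 9 genes was not tested beyond the following. Car8 (42.3% GC) and Neurod1 (43.6%) belong to the class of 40 to 45%, in which 74% of 3084 tested genes were called lower and the median log2 count ratio was -1.30. Both lay near the middle of that class: 50.8% of its genes had a lower ratio than Car8 and 61.4% a lower one than Neurod1. Cbln3, Zic1, Itpr1 and Pcp4 belong to the class of 45 to 50%, with a median of -0.47. Zic1 (48.2% GC) was low in it, with 10.3% of 4328 genes below it, and Itpr1 (49.5%) was high, with 81.7% below it. Itpr1 sits at the upper edge of that class, however, and the median of the class of 50 to 55% was 1.01. With the trend on GC content removed, the log2 count ratio of Itpr1 was 0.11.

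Zic2 lay low among genes of like GC content, and Cbln1 lay below the median of the classes on both sides of it. Zic2 has 59.9% GC and Cbln1 55%, and in the class of 55 to 60% the median log2 count ratio was 3.28 and 90.7% of 3127 tested genes were called higher. Zic2 was at -0.57 (-0.93 to -0.21), and 34 of the 3127 genes lay lower. Cbln1 was at 0.68, and 155 lay lower, but at 55% GC it sits at the lower edge of that class, and in the class of 50 to 55% the median was 1.01. The coding part of Zic2 has 66.2% GC and its 3′ UTR of 609 bases 37.1%. In Cbln1-202 the coding part has 58.4% GC and the 3′ UTR of 1016 bases 50%. With the trend on GC content removed, Cbln1 (-1.55) and Zic2 (-4.99) were called lower, and Car8 (0.05), Neurod1 (-0.02) and Zic1 (-0.87) were not called. Of all tested genes 9.06% were then called lower and 10.3% higher.

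**Figure D3:**
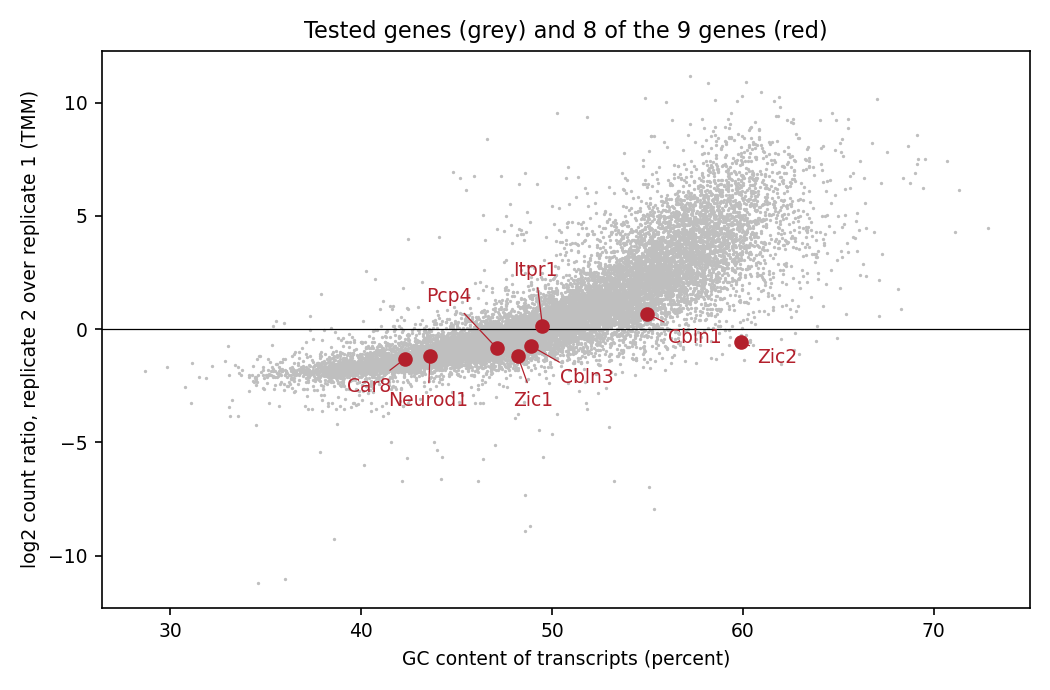
Log2 count ratio of replicate 2 over replicate 1 (TMM) against the GC content of the transcripts for the tested genes with a sequence (grey points) and 8 of the 9 genes (red points, named). Zic2, at 59.9% GC and -0.57, lies below nearly all genes of its GC class, while Car8 and Neurod1 lie in the middle of theirs.

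The estimated mix of transcripts of Zic1 and Cbln1 differed between the libraries. In replicate 1 all 1007 counts of Zic1 were assigned to Zic1-201 (5606 bases, 45.7% GC). In replicate 2 Zic1-201 held 478.29 counts and 51.82% of the gene's TPM. The shorter Zic1-202 (2811 bases, 54.5% GC) held 183.14 counts and 40.98%, and the noncoding fragment Zic1-203 (395 bases, 59% GC) 2.57 counts and 7.2%. The authors' interval for the TPM of Zic1-202 reached up to 0.476 in replicate 1 and ran from 4.26 to 7.54 in replicate 2, so the intervals did not overlap. Zic1-201 and Zic1-202 share the same coding sequence, and their 3′ UTRs have 3511 and 1069 bases.

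With this mix the effective length of Zic1, the length over which fragments can start, was 5423 bases in replicate 1 and 3899 in replicate 2. A lower count in replicate 2 stood beside a higher TPM as deposited. The same held for Pcp4 and Cbln3, whose effective lengths hardly changed (458 and 454 bases, and 4540 and 4536). The part of effective length in the TPM of Zic1 was not tested. The TPM of Zic1-201 alone was 12.9 and 8.14.

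Cbln1 showed a shift between 2 coding transcripts with the same coding sequence. Cbln1-202 (1699 bases) held 92.63% of its TPM in replicate 1 and 57.23% in replicate 2. Cbln1-201, with 2334 bases in the tables and a longer model in GENCODE M21, went from 10.24 to 124.58 counts, and its TPM of 0.33 and 5.35 had intervals that did not overlap (0.0779 to 0.801 and 3.49 to 6.92). The intervals of Cbln1-202, 2.95 to 4.8 and 3.89 to 8.73, did overlap. No test of the shares was made, since each side is 1 library. Zic2, Cbln3, Car8, Neurod1, Itpr1 and Pcp4 had all their counts on 1 transcript in both libraries. For Itpr1, a gene with known alternative exons, the tables list a single transcript, so its splicing could not be described.

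**Figure D4:**
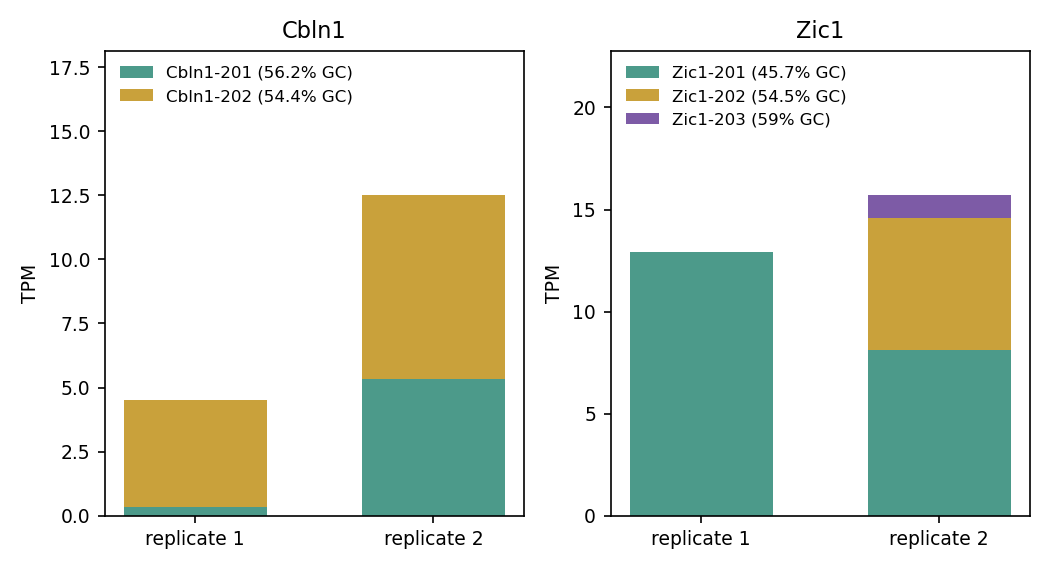
TPM of each transcript of Cbln1 (left) and Zic1 (right) stacked by library, 1 library per bar and so without error bars. Zic1-201 holds all of Zic1 in replicate 1 and 51.82% in replicate 2; Cbln1-201 goes from 0.33 to 5.35 TPM.

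Other genes of Purkinje cells ran from near 0 to 166 TPM. Of 19 further Purkinje cell genes 13 in replicate 1 and 15 in replicate 2 reached a TPM of 1. Of the 17 tested, 6 were called higher and 5 lower, beside 34.5% and 23.8% of all tested genes. The highest mean TPM was that of Pvalb, a calcium buffer also of cortical interneurons, at 27.9 and 166 TPM. Calb1, another calcium buffer with wide forebrain expression, was above it in replicate 1, at 96.1 and 52.5 TPM, and Dner, a Notch-binding protein of Purkinje and other neurons, at 59.1 and 69.4. Genes picked from the bottom of the list, named here after their values were seen, were Ppp1r17, a phosphatase inhibitor of Purkinje cells, with 5 and 4 counts, and Skor2, a Purkinje cell transcriptional corepressor, with 0 and 1. Slc1a6, the glutamate transporter of Purkinje cells and picked in the same way, had 5 and 152 counts and 56.4% GC.

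Granule cell genes were also found at low and at moderate levels. Of 14 further genes 8 in replicate 1 and 12 in replicate 2 reached a TPM of 1. All 14 were tested, and 4 were called higher and 3 lower, beside the same 34.5% and 23.8%. Also picked after their values were seen are Gabra6, Fat2, Barhl1 and Cdh15. Gabra6, the GABA-A receptor subunit typical of cerebellar granule cells, had 11 and 2 counts (0.37 and 0.08 TPM) and was called lower (log2 count ratio -2.77, adjusted p of 0.0037, exact test), and the cadherin gene Fat2 had 2 and 8 counts. Barhl1 had 3 and 26 counts and Cdh15 0 and 30, and both were called higher (adjusted p of 0.00122 and 6.39e-07, exact test) at 60.7% and 59.9% GC. Highest by mean TPM were genes also known from forebrain: Etv1 at 40.6 and 33.5, Chn2 at 19.3 and 27.5 and Tiam1 at 12.8 and 25.2.

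**Figure D5:**
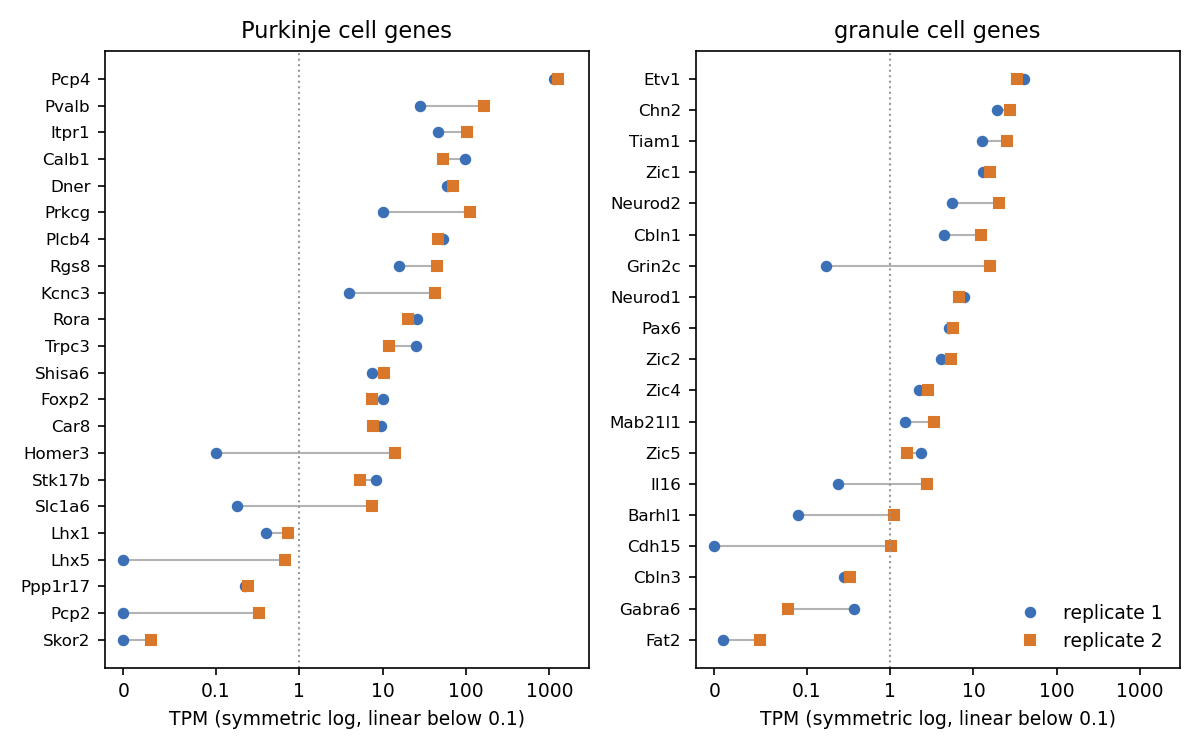
TPM in replicate 1 (blue circles) and replicate 2 (orange squares) of 22 of the 23 Purkinje cell genes and the 19 granule cell genes, each sorted by mean TPM, on a symmetric log axis with a dotted line at 1. Pcp2, Ppp1r17 and Skor2 close the first list and Cbln3, Gabra6 and Fat2 the second, all below 1 in both libraries.

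The rest of the cerebellar lists held few or many counts according to the cell type. Of 6 patterning genes 0 reached a TPM of 1 in either library, with En1 at 20 and 26 counts and En2 at 31 and 25, Pax5 at 0 and 3, and Atoh1 and Ptf1a, which act in cerebellar progenitors, at 0 in both. Among 8 genes of other cerebellar neurons 4 and 5 reached it. By mean TPM the first were Nxph1 at 29.3 and 26.3, Lgi2 at 5.32 and 15.1 and Sorcs3 at 5.29 and 12.5. Grm2, a glutamate receptor gene of cerebellar Golgi cells named after its values were seen, was at 0.22 and 16.7 TPM (56.9% GC) and so above Lgi2 and Sorcs3 in replicate 2. The part of cerebellar cells in the levels of these genes was not tested. The 6 Bergmann glia genes, most of which other astrocytes also use, summed to 342 and 673 TPM, mostly from the glutamate transporter gene Slc1a3 (217 and 254) and from Sept4 (29.9 and 259.5). Fabp7, of radial glia and astrocytes, was at 60.8 and 58.8 TPM. Gdf10, named after its values were seen, is the most specific of them and was at 0.99 and 4.33 TPM. Over the 5 lists without the 9 genes, 13 of 46 tested were called higher and 10 lower, beside 34.5% and 23.8% of all tested genes. The median log2 count ratio of these 46 was -0.16.

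Among the cerebellins Cbln2 stood highest, at 33.4 and 37.5 TPM, followed by Cbln4 at 14.8 and 15.7. Of their presynaptic partners, Nrxn3 was at 40.5 and 54.9 TPM and Nrxn2 (62.9% GC) at 1.73 and 131. Nrxn2 and C1ql1 were called higher in replicate 2 and C1ql3 lower. Cbln2 and Cbln4, which are made in forebrain neurons, were thus above Cbln1 and Cbln3 in each library.

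Of the Zic genes 4 lie in pairs, Zic1 beside Zic4 and Zic2 beside Zic5, and all 4 were above a TPM of 1 in both libraries. Zic4 was at 2.2 and 2.89 TPM and Zic5 at 2.32 and 1.59. Of these 4, Zic1 and Zic5 were called lower in replicate 2 and 0 were called higher. With library totals only Zic5 of the 4 was called lower (-1.04), Zic1 was at -0.56, and Zic2 changed sign to 0.04. Neurod6, a factor of forebrain projection neurons, stood at 86.2 and 64.3 TPM, above Neurod1 and Neurod2 (5.55 and 20.4), and Neurod4 was below 1 at 0.64 and 0.35. Neurod1, Neurod4 and Neurod6 were called lower, and with library totals only Neurod4 was, while Neurod2 was then called higher (1.51, against 0.90 with TMM).

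Itpr1 was the leading IP3 receptor, with Itpr2 at 1.32 and 3.35 TPM and Itpr3 at 0 and 101 counts. Of 13 other genes of IP3 receptor signalling, all tested, 5 were called higher and 4 lower, beside 34.5% and 23.8% of all tested genes. Homer3, a scaffold of Purkinje cell synapses, had 2 and 226 counts, and its relative Homer1 was at 179 and 119.6 TPM. Calmodulin genes, whose product Pcp4 binds, were also abundant, with Calm2 at 3887 and 3006 TPM and Calm3 at 62.8 and 1015. Of Pcp4's relatives, Pcp4l1 was higher in replicate 2, at 43 and 195 TPM (log2 count ratio 1.19, adjusted p of 1.86e-114, exact test). Nrgn, another calmodulin-binding protein, was at 35.5 and 1125 TPM at 58.7% GC, and Gap43 at 190.1 and 256. Of Car8's relatives, Car10 was at 45.6 and 61.7 TPM and Car11 (60.4% GC) at 3.01 and 160.

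Genes listed as markers of other sources of the shared genes were present in both libraries. All 8 genes of thalamus and habenula reached a TPM of 1 in each library (sum 102 and 211 TPM), among them Slc17a6 (54.6 and 40.9), Calb2 (16.1 and 51.4) and Prkcd (7.97 and 52.7). Of 6 striatal genes 4 reached it in replicate 1 and 6 in replicate 2 (sum 178 and 532), among them Ppp1r1b (11.1 and 322) and Rgs9 (7.36 and 47.8). Of 8 genes of cortical projection neurons 7 and 8 did (sum 217 and 662), among them Slc17a7 (25.5 and 466) and Neurod6. Slc17a7 was the largest part of that sum in replicate 2. These lists were not checked for genes that cerebellar cells also make, so their sums are not levels of non-cerebellar RNA alone. Itpr1, Pcp4 and Cbln1 are also known from forebrain or thalamic neurons, and the part of those neurons in their levels was not tested.

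Of 5 dentate gyrus genes 2 and 4 reached a TPM of 1 (sum 9.26 and 20.3), among them Prox1, a factor of dentate granule cells, at 6.99 and 6.58, C1ql2 at 0.34 and 9.87 and Tdo2 at 1.27 and 1.83. Of 7 septum and olfactory bulb genes 3 and 5 did (sum 14.4 and 27), among them Dlx1 (5.55 and 6.46), Trpc4 (3.49 and 6.51) and Th (0.23 and 6.74). Neurod1 is also made in the dentate gyrus and Zic genes in the septum and olfactory bulb. All 6 glial and meningeal genes other than Zic1 reached it (sum 1515 and 4178), among them Mbp (249.9 and 2734) and Aqp4 (69.8 and 48.8).

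Genes of 2 further sources were near 0 in deposited TPM, apart from Otx2 and Tph2. Among 6 genes of retinal bipolar cells, where Pcp2 is also known, only Otx2, which the choroid plexus makes as well, passed a TPM of 1 (5.39 and 6.46). Trpm1 was at 0.04 and 0.35 TPM, Cabp5 at 0.23 and 0.12 and Grm6 at 0 counts. Trpm1 rested on 1 and 3 counts, and its level is not resolved. The authors' posterior mean TPM for it was 47.9 and 45.9, with intervals from 1.74 to 139 and from 2.22 to 129. Among 8 genes of the hindbrain outside the cerebellum only Tph2, of serotonin neurons, did (12.1 and 9.83), and Hoxb3, Hoxb5, Hoxc4 and Phox2a had 0 counts in both libraries. The part of any of these cell types in the levels of the 9 genes was not tested.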

How the data were processed

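The authors deposited, for each of 2 libraries, values per gene and values per transcript. Per the file headers these are expected counts (estimated, not whole), TPM, FPKM, the bounds of an interval of TPM (held here as a score on the TPM scale) and, for transcripts, the percent of the gene's TPM. The level of the interval, the quantifier and the aligner were not stated in the labels or headers. The deposited listings name mm10 and the genome annotation M4. Rows that name no gene held 0 and 1 counts and were left out.

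Symbols, positions and sequences came from GENCODE M21 (GRCm38), through gene and transcript identifiers stripped of their version. This gave 97.96% of genes a symbol, all 9 members among them, and 17 of the 20 member transcripts had the same length as in the tables. A gene's GC content weights each transcript by its TPM. Expected counts were rounded and compared by a two-sided exact binomial test with TMM scaling (edgeR 4.0.16, R 4.3.3), over every gene whose counts summed to 10 or more. For the fold, 0.5 was added to both counts. With 1 library a side no quasi-likelihood fit was possible, and differences have no replicate check. The exact test was tried on simulated counts that held counting error only, with library totals as sizes and no GC trend. That simulation cannot speak to the GC trend or to the choice of scaling. Trends on GC were fitted by lowess (fraction 0.2, statsmodels 0.14.6), and coding sequences were aligned with Biopython 1.88. Alternatives used library totals, size factors of DESeq2 1.42.0, other filters and pseudocounts, FPKM, and TPM rescaled without mitochondrial genes.

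The 9 genes and the 19 lists were chosen with earlier results of these data known. The rule names the 9 genes, the 3 genes of highest mean TPM of each list, a list's first gene where it had 0 counts, and relatives of the 9 genes. Other genes with values were named after their values were seen. Some genes of the lists are not reported here.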

Additional observations from a re-analysis of the deposited data

How the results depend on the processing

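Across the alternatives, 7 of the 9 genes kept a TPM of at least 1 in both libraries, also without replicate 1 and without replicate 2 (7 and 7), and 5 reached a TPM of 5. The count calls depended on the scaling. With library totals 1 gene was called higher (0 with TMM) and 0 lower (3 with TMM), the median log2 count ratio went from -0.74 to -0.13, and the further cerebellar genes called lower went from 10 to 3 and the percent of all tested genes called lower from 23.8 to 7.83. With totals without mitochondrial genes and their nuclear copy 1 was lower, beside 16.6% of all tested genes, and the median was -0.48. With any fold 2 were higher and 5 lower, and 20 further cerebellar genes were lower. Of all tested genes 43.4% were then higher and 38.8% lower. With the GC trend removed 6 further cerebellar genes were called higher (13 before), 10.3% of all genes were higher and 9.06% lower, and the log2 count ratio changed sign for Car8 (0.05) and Cbln1 (-1.55). The cause was not tested. Size factors of DESeq2, the filters on low counts and posterior mean counts kept the numbers of the 9 genes called higher and lower. The posterior mean raised the mean TPM of Pcp2 from 0.165 to 1.43, with 0 and 1 counts behind it. No paired analysis was possible because there is 1 group. Depth limits Pcp2 and Cbln3: 3 counts are 1.64e-05% of replicate 1 and 1.68e-05% of replicate 2.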
